A study of Mus musculus with 3 samples.

Results

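The regions described here are the Pyicoclip peaks of 31 to 60 nt in AGO2 HITS-CLIP of P19 cells, a mouse embryonal carcinoma line. They were chosen by their width, measured as the end minus the start of each listed interval, and 215 of the 2068 Pyicoclip peaks met the rule. The range had been picked because it was the width class richest in microRNA genes, so its width and its share of microRNA genes are given as a description and without a test. All 3 libraries were made with the AGO2 antibody clone 2D4 and form 1 group, with no control or treated group, and each deposited peak list covers the group together. Values per library were not used, which leaves the depth of each unknown and gives no spread between them. The other lists, made by the peak callers Piranha, PIPE-CLIP and CIMS, held 1417, 3257 and 169 peaks. Positions are in mm10 and counted from 1.

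AGO2 carries a mature microRNA and pairs its seed, bases 2 to 8 counted from the 5′ end, with target RNAs. A microRNA is cut from 1 arm of a hairpin, the 5′ or the 3′ arm, and the hairpin is itself cut from a longer transcript. Fragments recovered with AGO2 can therefore come from the microRNA or from the RNA that it pairs with. The protocol selected short inserts, and a peak is the stretch of genome under overlapping reads.

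The mature microRNAs under these peaks are shown because they tell which arm of each hairpin the peak covered. The sequences are from RefSeq (GRCm38.p6), and the seed is in capitals. The first pair shares the seed ACAUUCA, and that pair came from 4 genes. The other sequences each have a seed of their own.
miR-181a-5p: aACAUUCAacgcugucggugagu
miR-181b-5p: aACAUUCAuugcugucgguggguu
miR-181a-2-3p: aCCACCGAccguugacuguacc
miR-182-5p: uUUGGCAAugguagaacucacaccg
miR-183-5p: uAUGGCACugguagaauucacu
miR-93-5p: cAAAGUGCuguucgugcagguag
miR-16-5p: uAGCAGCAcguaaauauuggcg
let-7c-5p: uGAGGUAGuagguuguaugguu
miR-301a-3p: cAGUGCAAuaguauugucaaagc

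The 215 peaks formed the thin range between a dense group of narrow peaks and a long tail of wide ones. There were 1076 peaks of at most 30 nt and 777 over 60 nt. Within the class, 123 peaks were 31 to 40 nt wide, 41 were 41 to 50 nt and 51 were 51 to 60 nt, with a median of 38 nt. The lower bound cuts a falling slope rather than a gap. The list held 35 peaks of exactly 30 nt, with a median score of 12 and 5 in microRNA genes, and 31 peaks of exactly 31 nt, with a median score of 13 and 4 in microRNA genes. At the upper bound it held 5 peaks of 60 nt and 3 of 61 nt, none of them in a microRNA gene. The class covered 8906 nt, 96 of its peaks were on the plus strand and 81 on the minus strand, and 38 had no strand in the file. Peaks without a strand made up 17.7% of the class, against 3.25% of narrow and 8.24% of wide peaks.

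**Figure D1:**
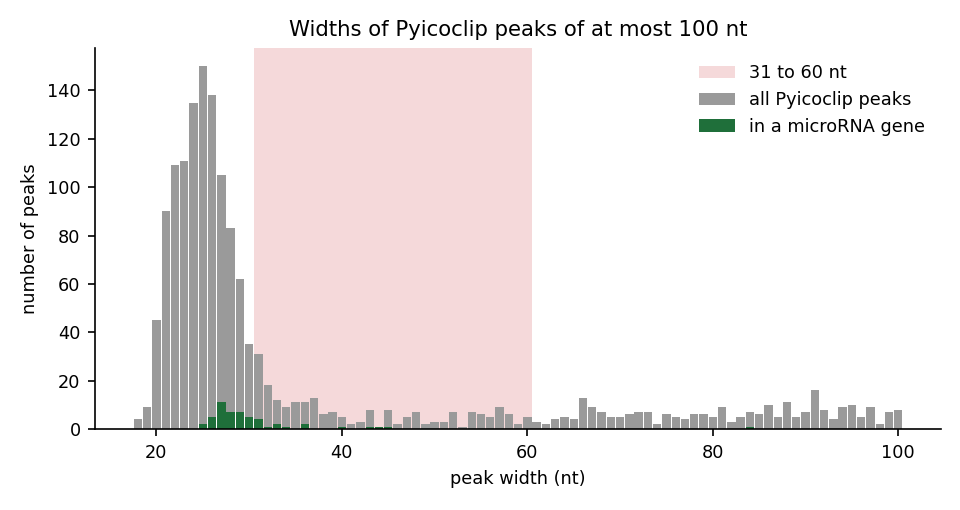
Number of Pyicoclip peaks at each width up to 100 nt, with those whose midpoint lies in a microRNA gene in green and the range of 31 to 60 nt shaded. The shaded range begins on the falling side of the narrow peaks, with 35 peaks at 30 nt and 31 at 31 nt, and most microRNA peaks lie at or below its lower end.

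MicroRNA genes held 14 of the 215 peaks, 6.51% (95% Wilson interval 3.92 to 10.6). The share was 3.44% (2.50 to 4.70) of narrow peaks and 0.515% (0.200 to 1.32) of wide peaks. In numbers the order was another one, since the narrow class held 37 microRNA peaks. The shares also depend on where the bounds lie. MicroRNA genes held 11 of the 105 peaks of 27 nt and 5 of the 35 of 30 nt. They held 0 of the 135 peaks of 24 nt and, within the class, 0 of the 51 peaks of 51 to 60 nt. The richness was therefore shared with the widest of the narrow peaks. The 14 peaks lay in 13 genes, 1.06% of the 1228 microRNA genes of the RefSeq table. Their scores, the number that the authors' files give each peak without a unit, ran from 10 to 30 with a median of 14. The class as a whole ran from 10 to 77 with a median of 13. Of the 14 microRNA peaks, 11 were 31 to 40 nt wide and the other 3 were 41 to 50 nt wide.

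The miR-181 family gave 5 of the 14 peaks, and 4 of its 6 listed genes held one. A further gene of the family, Mir181c, held a narrow peak with a score of 12. The highest microRNA score of the class, 30, was at Mir181a-1, on chromosome 1 at 137966465 to 137966500. Its neighbour Mir181b-1, at 137966646 to 137966676, scored 15. The second pair of the family lies on chromosome 2. Mir181b-2, at 38853842 to 38853872, scored 24, and the hairpin of Mir181a-2 held 2 separate peaks with scores of 12 and 18. These 3 peaks lie inside the span of Nr6a1, an orphan nuclear receptor gene of the minus strand, and inside that of Nr6a1os, a long non-coding RNA gene of the plus strand. The microRNA hairpins are on the plus strand, as were the stranded peaks, so they were antisense to Nr6a1 and sense to Nr6a1os.

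The hairpin of Mir181a-2, chr2:38852735-38852810 on the plus strand, is printed once for each of its peaks, because the pair covers both arms and leaves a gap in the loop. Bases under the peak are in capitals.
peak on the 5′ arm: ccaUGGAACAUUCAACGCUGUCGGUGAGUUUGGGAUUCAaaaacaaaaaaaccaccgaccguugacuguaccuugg
peak on the 3′ arm: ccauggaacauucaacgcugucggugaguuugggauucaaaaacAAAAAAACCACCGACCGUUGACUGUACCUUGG

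The peak on the 5′ arm, 38852738 to 38852773, had a plus strand, a score of 12 and no overlap with another list. The peak on the 3′ arm, 38852779 to 38852812, had no strand, a score of 18 and a Piranha peak under it. The arm of miR-181a-2-3p thus had the higher score of the pair in this list, and no error can be given for either score. Mature miR-181a-5p has the same letters in Mir181a-1 and Mir181a-2, as miR-181b-5p has in Mir181b-1 and Mir181b-2, and reads of the mature sequence alone cannot be assigned to 1 copy.

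Mir182 and Mir183, which share a transcript and are known from sensory cells, held 1 peak each within the host gene Mirc35hg on the minus strand of chromosome 6. The peak of Mir182 at 30165958 to 30165990 scored 27, and that of Mir183 at 30169706 to 30169736 scored 24. Mir96, the third gene of that cluster, held no Pyicoclip peak of any width. Mir93, a relative of the miR-17 group within the gene Mcm7, had a peak of score 13 on chromosome 5 at 138165566 to 138165598. It was the only one of 15 listed genes of the miR-17-92 cluster and its 2 paralogs with a peak of this width, while 5 others held narrow peaks.

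Let-7 microRNAs, which rise as stem cells differentiate, gave 2 of 11 listed genes. Mirlet7c-2 scored 11 on chromosome 15 at 85706614 to 85706653. Mirlet7a-2 also scored 11, on chromosome 9 at 41536715 to 41536757, in a peak without strand that overlapped no other list. Mature let-7c-5p has the same letters in Mirlet7c-2 and in Mirlet7c-1, which held a narrow peak. Reads of that mature sequence alone cannot be assigned to 1 copy. The other genes were Mir16-1, a microRNA gene within Dleu2, with a score of 11 on chromosome 14 at 61631916 to 61631959, and Mir301, within Ska2, with 11 on chromosome 11 at 87113046 to 87113077. Mir669c, within Sfmbt2, scored 15 on chromosome 2 at 10509317 to 10509347, and Mir320 scored 10 on chromosome 14 at 70443536 to 70443580. Apart from that of Mir669c, these scores lie within 1 of the lowest deposited value, 10.

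RefSeq gave a mature sequence for 11 of the 14 peaks, and in all 11 the peak covered the mature microRNA from end to end. Each of the 9 stranded peaks on a hairpin of the table had the strand of the hairpin. The 5′ arm was covered in 9 cases and the 3′ arm in 2, miR-181a-2-3p and miR-301a-3p. Both peaks on the 3′ arm had no strand in the file, whereas the 9 on the 5′ arm had one. Narrow peaks with a mature sequence were spread over the arms more evenly, with 15 on the 5′ and 14 on the 3′ arm, a difference that was not tested. The peaks reached beyond the mature 5′ end by 2 to 8 nt, with a median of 3, and beyond the 3′ end by 1 to 20 nt, with a median of 6. In 7 peaks the overhang was longer at the 3′ end, in 2 at the 5′ end, and in 2 it was equal. Narrow peaks overhung by a median of 2 nt at the 5′ and 4 nt at the 3′ end. Since a peak enters the class by being wide, longer overhangs are a consequence of the rule.

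The longest 3′ overhangs were 20 nt at Mir16-1 and 16 nt at Mirlet7c-2. Their hairpins are shown with the bases under the peak in capitals, because there the peak runs on from the 5′ arm into the loop. The first lies at chr14:61631880-61631972 on the minus strand and the second at chr15:85706603-85706697 on the plus strand.
Mir16-1: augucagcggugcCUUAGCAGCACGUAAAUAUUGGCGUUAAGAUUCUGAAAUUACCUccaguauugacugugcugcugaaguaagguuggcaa
Mirlet7c-2: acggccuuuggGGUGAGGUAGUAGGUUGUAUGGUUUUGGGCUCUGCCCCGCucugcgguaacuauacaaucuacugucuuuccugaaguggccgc

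In Mir16-1 the peak covered 44 of 93 hairpin bases, and in Mirlet7c-2 it covered 40 of 95. Both peaks scored 11, near the floor of the list. In the 4 microRNA peaks that scored over 20, at Mir181a-1, Mir182, Mir181b-2 and Mir183, the overhang was 3 to 4 nt at the 5′ end and 4 to 10 nt at the 3′ end.

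**Figure D2:**
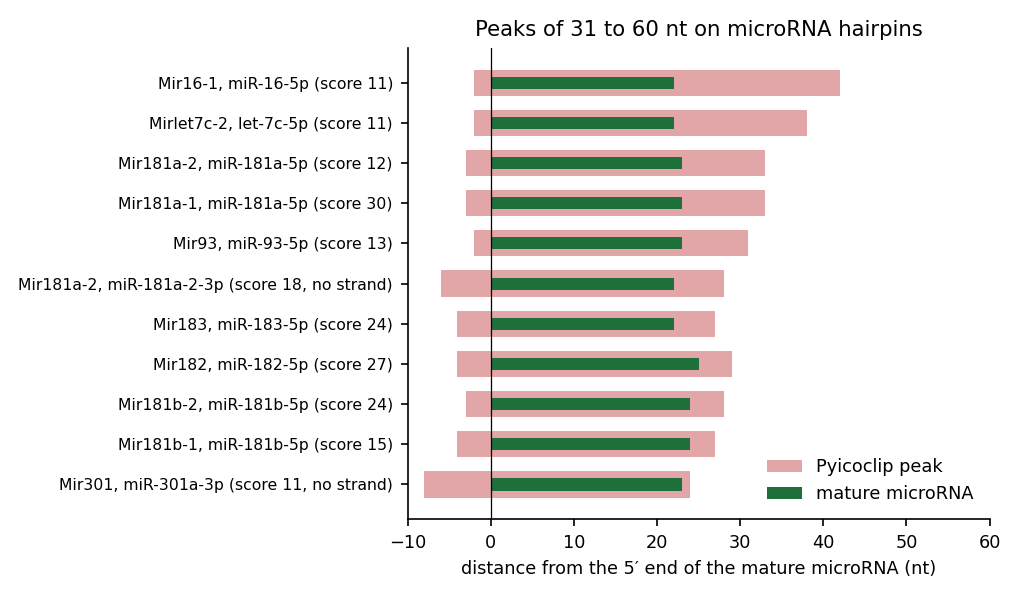
Extent of 11 peaks of 31 to 60 nt around the mature microRNA, in nt from its 5′ end along the hairpin strand, with the peak in pink, the mature sequence in green and the authors' score beside each name. Every peak covers the whole mature microRNA, and the peaks of Mir16-1 and Mirlet7c-2 run 20 and 16 nt past its 3′ end.

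Other small RNA genes held 10 peaks, 4.65% (2.55 to 8.35), with scores of 10 to 16. This share was 0.279% of narrow and 5.28% (3.91 to 7.08) of wide peaks. Small nuclear RNA genes, whose products take part in splicing, gave 5 of the 10. They were Gm22423 with a score of 13, Gm24763 with 13, Gm23405 with 12, Gm23656 with 12 and Gm25587 with 10. The transfer RNA genes n-TLcag2, n-TLtag1, n-TGgcc3 and n-TTcgt3 had 1 peak each, with scores of 16, 15, 13 and 13, and the small nucleolar RNA gene Gm24949 had 1 with 14. Such genes exist in many near-identical copies, and which copy a read came from is uncertain. The peak in n-TLcag2 was the only one of these that overlapped CIMS.

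Genes of the 5S ribosomal RNA type gave 1 peak in the rRNA class, n-R5s28 with a score of 20, and 3 in copies that the table types as pseudogenes, outside protein-coding spans, n-R5s127 with 16, n-R5s209 with 15 and n-R5s71 with 14. Mitochondrial RNAs held 0 of the 215 peaks. A count of 0 leaves room for about 1.40%, taking 3 counts as the limit, or 1.76% by the Wilson interval. They also held 0 of the 1076 narrow and 0 of the 777 wide peaks, so the count is not particular to the class. These limits and intervals cover counting error only.

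Protein-coding spans held the midpoint of 94 peaks with no microRNA, ribosomal or other small RNA gene there, 43.7% (37.3 to 50.4). Of these, 2 also lay in 5S copies typed as pseudogenes, n-R5s41 in Pheta2 with a score of 17 and n-R5s204 in Nusap1 with 11. Together with the peaks of small RNA genes inside such spans the 94 lay in 102 of 21900 protein-coding genes, 0.466%. The share of peaks was 51.8% (48.8 to 54.7) of narrow and 73.2% (70.0 to 76.2) of wide peaks. Scores were low in this class, with a median of 12 and a highest value of 39. A further 74 peaks, 34.4% (28.4 to 41.0), lay in no annotated gene, with a median of 14.5, and 14 lay in long non-coding RNA genes, with a median of 15. Among the latter, 1 peak of Gm39850 with a score of 35, Gm35818 with 22 and Gm30216 with 18 overlapped both Piranha and PIPE-CLIP. With scores of 15 or more, 85 peaks were left, of which 30.6% were protein-coding and 43.5% in no gene.

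The highest scores of the class were mostly outside annotated genes. Of the 10 highest-scoring peaks, 6 lay in no gene, among them the first 4, with scores of 77, 55, 46 and 45. They were at chromosome 15, 85177744 to 85177790, chromosome 9, 17987786 to 17987839, chromosome 17, 22876467 to 22876518, and chromosome 13, 54190139 to 54190186. Npm1, the gene of the nucleolar protein nucleophosmin, came next with 39 on chromosome 11 at 33159932 to 33159987. Its peak was the only member that overlapped another interval of the Pyicoclip list. The long non-coding RNA gene Gm39850 had 2 peaks with scores of 35 and 27, and Cadps2, a gene of vesicle release, had a peak without strand and a score of 35. Gm52471, a pseudogene, scored 31. Gm33099 also had 2 peaks, both without strand, with scores of 15 and 10.

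**Figure D3:**
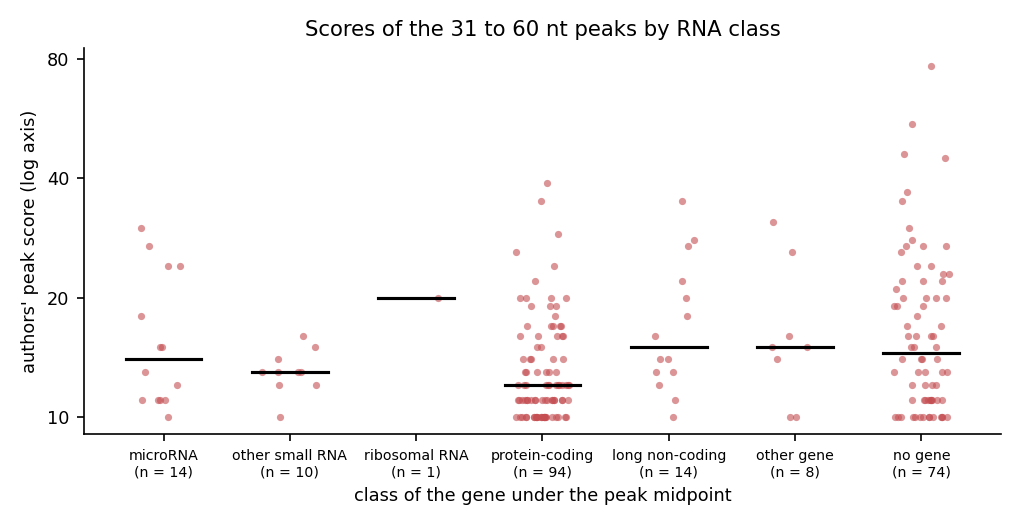
Authors' score of each of the 215 peaks on a log axis, by the class of the gene under the midpoint, with a black line at the median. Scores in protein-coding spans have a median of 12 and peaks in no gene a median of 14.5, and the 4 highest points, from 45 to 77, are in no gene.

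Read from the score, 20 of the 36 peaks above 20 were in no gene and 6 in protein-coding spans, against 28 and 57 of the 99 peaks that scored 10 to 12. All 4 microRNA peaks above 20 were from the miR-181 and miR-183 groups, at Mir181a-1, Mir182, Mir181b-2 and Mir183. No genome sequence was used, so it was not tested whether the peaks in no gene lie in repeats or in copies of other RNAs. Some lay close together. Another Pyicoclip peak was within 500 nt of 44 of the 215 peaks, 20.5% (15.6 to 26.4), against 2.14% of narrow and 35.5% of wide peaks. Peaks of the class itself formed 12 such groups with 25 peaks, of which 8 groups with 17 peaks were in no gene. The largest was a run of 3 minus-strand peaks on chromosome X, 116287107 to 116287383. Another 2 groups were the microRNA pairs of Mir181a-1 with Mir181b-1 and of the arms of Mir181a-2.

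The strand of the peak was then set against that of the gene. Among peaks with a strand that lay in 1 protein-coding span of known direction, 33 of 53 were sense, 62.3% (48.8 to 74.1). In wide peaks 348 of 376 were sense, 92.6% (89.4 to 94.8), and in narrow peaks 203 of 396, 51.3% (46.4 to 56.1). The interval of the class overlaps that of the narrow peaks and not that of the wide ones, and no test was run. Of the peaks of this kind that overlapped at least 2 other lists, those in Synpr, Spata5, Mier3 and Tns3 were sense and those in Stard9, Kif18a and Cntnap5b were antisense. Leaving out genes known to lie on the strand opposite to the peak, protein-coding spans held 34.0% of the class. Genes of unknown direction and peaks without strand were kept in that count.

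Position along the gene was read in the direction of the gene where the table gave it and otherwise of the peak. Of 82 peaks, 14 lay in the last 10% of the span, 17.1% (10.5 to 26.6), and 17 in the first 10%, 20.7% (13.4 to 30.7). This count pools peaks sense and antisense to the gene and peaks without strand. For 71 of them the direction of the gene was known. Of the 33 sense peaks, 8 lay in the last and 5 in the first 10%. Of the 20 antisense peaks it was 2 and 3, and of the 18 without strand 3 and 6. Wide peaks had 60.7% (56.4 to 64.8) in the last and 3.28% in the first part, and narrow peaks 12.6% (9.97 to 15.7) and 16.5%. The last part held Tns3, a focal adhesion gene, Qk and Msi2, which encode RNA-binding proteins, and Psme3, whose peak of score 10 was 87 nt from the end of the span. It also held Kdm3a, a histone demethylase gene, in a peak without strand. With scores of 15 or more, 9.09% of 22 peaks lay there.

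Peaks near the annotated start of a gene were few in each orientation. Of 18 peaks without strand, 4 lay within 500 nt of the annotated start, 22.2% (9.0 to 45.2), in Dck, Ero1b, Hspa4 and Map3k3. Of 33 sense peaks 2 lay there, 6.06% (1.68 to 19.6), in Synpr and Mmp28, and of 20 antisense peaks 2, in Fcgbp and Gm51464. The intervals overlap. The Synpr peak, at chromosome 14, 13284797 to 13284833, was centred 35 nt from the annotated start of this synaptic vesicle gene, scored 16 and also overlapped Piranha and CIMS.

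**Figure D4:**
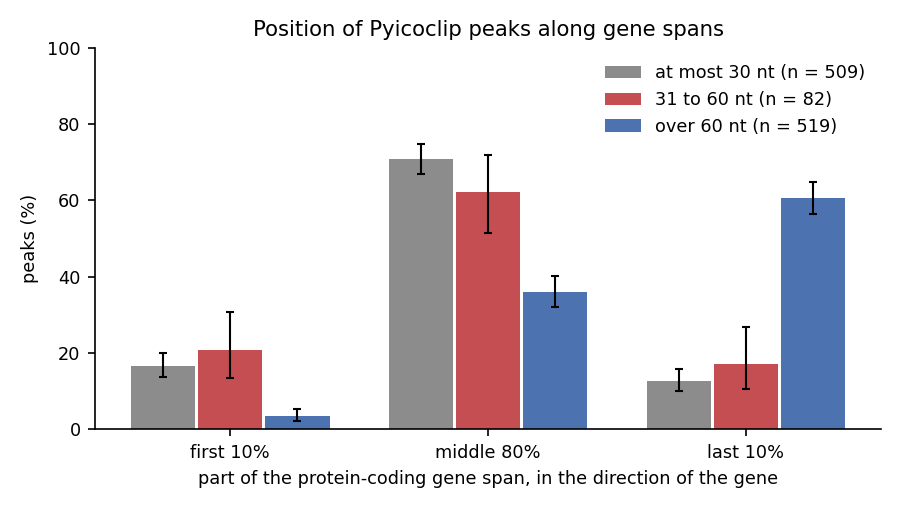
Share of peaks in the first 10%, middle 80% and last 10% of the span of the 1 protein-coding gene they lie in, by peak width, with 95% Wilson intervals. Sense and antisense peaks and peaks without strand are counted together. The 31 to 60 nt peaks have 20.7% in the first and 17.1% in the last part, against 16.5% and 12.6% of narrow peaks, whereas 60.7% of wide peaks are in the last part.

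The next comparison asked which of these peaks other callers also listed. A peak of the class overlapped Piranha in 138 of 215 cases, 64.2% (57.6 to 70.3), PIPE-CLIP in 43, 20.0% (15.2 to 25.9), and CIMS in 13, 6.05% (3.57 to 10.1). The Piranha share lay between the 85.7% of narrow and the 32.6% of wide peaks, and the PIPE-CLIP share between 0.0929% and 75.9%. By two-sided Fisher's exact tests, adjusted over 6 tests by the Benjamini-Hochberg method, the class was lower than narrow peaks for Piranha (adjusted p = 3.94e-12) and higher than wide peaks (adjusted p = 2.59e-16). For PIPE-CLIP it was higher than narrow peaks (exact test, adjusted p = 8.55e-34) and lower than wide peaks (adjusted p = 5.26e-50). For CIMS it was higher than narrow peaks, which had 2.23% (exact test, adjusted p = 0.00663), and a difference from wide peaks, with 8.62%, of -2.58 points did not pass (adjusted p = 0.258).

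These tests count peaks as independent although some share an RNA, and the lists come from the same libraries, so they compare width classes of this list and not conditions. Among scores of 15 or more the Piranha shares were 89.4% and 94.0% for the class and narrow peaks (exact test, adjusted p = 0.258), and CIMS no longer exceeded narrow peaks, with 7.06% against 7.14%. The PIPE-CLIP share of the class was 31.8% among those scores. The Piranha share depended on the overlap rule. It was 22.3% where at least 50% of the Pyicoclip peak had to be covered, against 47.9% of narrow and 1.67% of wide peaks. Where the midpoint had to lie in the other peak it was 26%, against 47.9% and 9.52%. Under both rules the class stayed below narrow and above wide peaks (exact tests, highest adjusted p = 6.08e-09). Under the midpoint rule the class exceeded wide peaks for CIMS, with 6.05% against 2.45% (exact test, adjusted p = 0.0144). Both rules are harder to meet for longer peaks. The Piranha peaks under the class had a median width of 20 nt, and the Pyicoclip medians were 25 nt for narrow peaks, 38 nt for the class and 120 nt for wide peaks. The order under these rules is thus partly set by width and is not separate support.

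**Figure D5:**
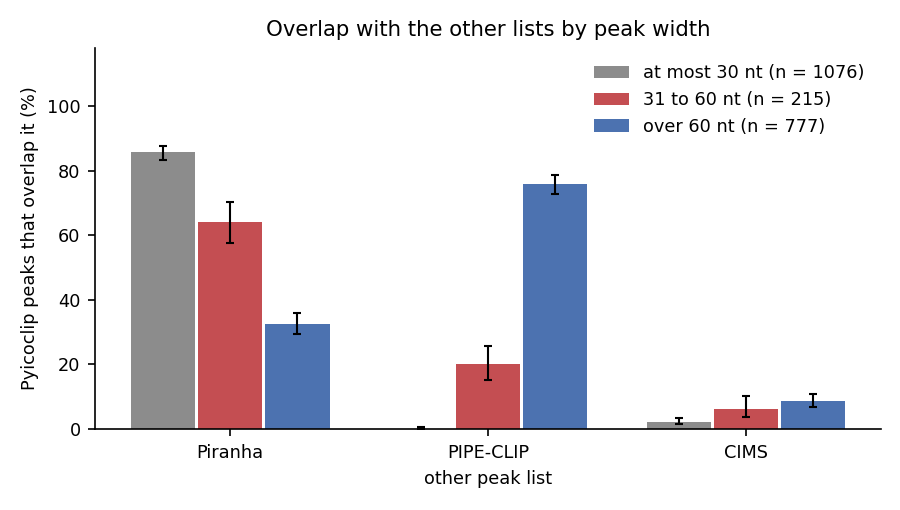
Share of Pyicoclip peaks that share at least 1 nt with a peak of each other list on 1 strand, for 3 width classes, with 95% Wilson intervals. The 31 to 60 nt peaks lie between the others for Piranha, at 64.2%, and for PIPE-CLIP, at 20.0%.

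The lists also differ in width. The Piranha peaks under the class were 20 to 40 nt wide with a median of 20 nt, the PIPE-CLIP clusters 31 to 164 nt with a median of 52 nt, and the CIMS peaks all 41 nt. Within the class the PIPE-CLIP share was 6.50% in the 123 peaks of 31 to 40 nt, 24.4% in the 41 peaks of 41 to 50 nt and 49.0% in the 51 peaks of 51 to 60 nt. The Piranha shares were 66.7%, 75.6% and 49.0% in the same order. Among the 38 peaks without strand, 19 overlapped Piranha, 12 of them on its plus and 7 on its minus strand and none on both, and 1 overlapped PIPE-CLIP. Peaks with a strand overlapped PIPE-CLIP in 24.0% of the plus and 23.5% of the minus strand.

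Overlap with any other list was more frequent at high scores, as a description of the class. Other lists held 36 of the 36 peaks above 20, 68 of the 80 that scored 13 to 20, and 48 of the 99 that scored 10 to 12. In all, 63 peaks were in no other list, 112 in 1, 38 in 2 and 2 in all 3. Where peaks overlapped, Spearman's rho between the scores was 0.79 with Piranha over 138 peaks and 0.78 with CIMS over 13, and 0.22 with PIPE-CLIP over 43. These are correlations across peaks from the same libraries and reads, and no p is given.

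The 2 peaks found in all lists were a site in no gene on chromosome 1, 47430912 to 47430953, with a score of 37, and a site in Stard9 on chromosome 2, 120640749 to 120640800. The Stard9 peak scored 20 in Pyicoclip, 16 in Piranha, 10 in PIPE-CLIP and 19 in CIMS and was on the minus strand, opposite to Stard9. The other CIMS sites were 3 in no gene, 1 in n-TLcag2 and those in Pcbp3, Synpr, Spata5, Mical2, Arhgap12, Gm39439 and the overlapping genes Pfn1 and Eno3, the last 7 with Pyicoclip scores of 10 to 24. None of the 14 microRNA peaks overlapped CIMS, which says nothing particular about them, since only 6.05% of the whole class did. Of the 14, 10 overlapped Piranha, 71.4% against 64.2% of the class. The 4 at Mir181a-1, Mir182, Mir181b-2 and Mir93 overlapped PIPE-CLIP as well, 28.6% against 20.0% of the class.

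Gene lists for the biology of these cells held few of the peaks. Of 21 genes of the microRNA pathway, such as Dicer1 and Ago2, none had a peak of 31 to 60 nt. Cdk1, the kinase that drives entry into mitosis, was the only one of 20 cell cycle genes with such a peak, with a score of 10 and a PIPE-CLIP cluster. Npm1 and Eif4a2 were 2 of 12 translation genes, and both also held wide peaks. None of 16 chromatin regulators had a peak of 31 to 60 nt. With 0.466% of all protein-coding genes in the class, a count of 0 in a list of this size says nothing particular about the list. Wide peaks lay in 8 of the 21 pathway genes, among them Ago2, Tnrc6a and Lin28a, against 1.73% of all protein-coding genes. They also lay in 8 of the 16 chromatin regulators, 9 of the 12 translation genes and 6 of the 20 cell cycle genes. The lists were drawn up with earlier results of these data known, so the contrast with all genes is a description and was not tested. None of 22 markers of pluripotent and embryonal carcinoma cells was in the class. Narrow peaks held Mir302a, Mir302b, Mir302d, Mir292 and Mir293, and wide peaks held Lefty1 and Lin28a. The rest of the 22, among them Pou5f1, Sox2 and Nanog, held no Pyicoclip peak of any width. No marker of neurons, muscle or fibroblasts, 18 in all, held a Pyicoclip peak of any width. A peak shows bound RNA and not its level, so the absence of a marker does not show that the RNA is absent.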

How the data were processed

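HITS-CLIP of AGO2 in 3 P19 libraries was deposited as 4 peak lists, 1 per peak caller. The submitters' processing notes name cutadapt, Novoalign and the build mm10. Versions, caller settings and the joining of libraries were not given in the sources used here. The score is the authors' deposited value of each peak, lowest value 10, with no stated unit, and was used only within a list except for the rank correlations. Peaks took 1 class from the RefSeq gene spans (GRCm38.p6) that held their midpoint, in the order mitochondrial, ribosomal, microRNA, other small RNA, protein-coding, long non-coding, other, none. Gene direction was known for 28030 of 49997 genes. Peaks without strand matched either strand. Members, gene lists and tests were chosen with earlier results of these data known. Genes named are all small RNA genes of the class, those of the 10 highest scores, genes with at least 2 peaks or with peaks in at least 2 other lists, list members, and examples by position and sense, chosen after their values were seen. Overlaps were checked on simulated data. Alternatives covered width bounds, merging, score, strand, overlap and gene assignment. Python 3.11.15, scipy 1.17.1, statsmodels 0.14.6 and matplotlib 3.10.9 were used.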

Additional observations from a re-analysis of the deposited data

How the results depend on the processing

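Of 77 alternative values for 11 results, 69 kept their direction and side of the threshold, or stayed within the interval, and 8 did not. Among the 69, the share of the class itself still moved by over 1.5 times in Piranha, from 64.2% to 22.3% with 50% overlap and 26% with the midpoint rule, and in PIPE-CLIP, from 20.0% to 31.8% with scores of 15 or more. Its difference from wide peaks moved likewise in Piranha, from 31.6 points to 20.7 and 16.5 under those 2 rules, and in CIMS, from -2.58 points to -1.15 with widths of 36 to 55 nt, -1.64 with stranded peaks only and -8.30 with scores of 15 or more. With scores of 15 or more, the difference from narrow peaks in the Piranha share was -4.54 points (exact test, adjusted p = 0.258), that in the CIMS share was reversed at -0.084 points, protein-coding spans held 30.6%, no gene 43.5%, and the last 10% of the span 9.09% of 22 peaks; the number of peaks fell from 215 to 85. The difference from wide peaks in the CIMS share was reversed at 5.66 points under a rule of 50% overlap and at 3.60 points with the midpoint rule. Wide peaks are longer than the 41-nt CIMS peaks and than the Piranha peaks under the class, so few can meet the first. Without genes known to lie on the strand opposite to the peak, protein-coding spans held 34.0%. Leaving out a library could not be run, since no list separates the libraries. No paired analysis was possible because the samples form 1 group. No list held a score below 10, so weaker sites were not analysed here.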
